A study of Mus musculus with 11 samples.

Results

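Transcript levels of 9 genes for provisional matrix and matricellular proteins were followed in mouse liver after paracetamol (acetaminophen, APAP) overdose, in whole tissue sections and across the spots of each section. The 9 genes, Fn1, Vtn, Tnc, Sparc, Thbs1, Postn, Fstl1, Lox and Fbn1, were taken by symbol out of 31053 genes in the gene tables, and each symbol matched 1 gene. The assay was 10x Visium, in which a frozen tissue section lies on a grid of barcoded spots that capture polyadenylated RNA from its 3′ end, so that each spot is a small region holding RNA of several cells. Uninjured liver, labelled Healthy, gave 3 sections at 0 h (replicates 2, 3 and 4). Liver after overdose, labelled POD, gave 2 sections at 24 h, 2 at 36 h and 4 at 48 h, lettered from A, and the study's methods describe the overdose as APAP injected into the peritoneum. The study's methods describe male mice unless stated otherwise, fasted before the drug. They list C57BL/6JCrl mice beside 2 reporter strains, mTmG and TdTomato, without saying which were used for this assay. The labels name no strain or allele. A single liver per time point was described for this assay, whereas the labels list several sections per time and do not say which mouse each came from. Hence n counts sections, the p-values cover the spread between sections only, and the mouse, any batch and the time point cannot be told apart.

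When liver cells die, the gaps are filled first by a provisional matrix of fibrin, fibronectin and vitronectin; fibronectin and vitronectin circulate in plasma and are made in quantity by hepatocytes. Matricellular proteins are secreted into the matrix during repair and act on cell adhesion, migration and growth factor signalling more than on mechanical strength, and several of them are made by activated stellate cells and other mesenchymal cells. Lysyl oxidase and fibrillin then belong to the step in which collagen and elastic fibres are assembled and cross-linked.

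Sections held 1490 to 3466 spots that passed a filter of at least 800 genes and at most 20% mitochondrial UMIs (unique molecular identifiers, each counting 1 captured transcript), with 31292663 to 67045372 UMIs per section. The liver label was checked against markers: 6 hepatocyte genes (Alb, Ttr, Trf, Hp, Hnf4a and Apoa1) together took 94550 to 96431 UMIs per 1000000 UMIs of the section (UPM below, with no further scaling) in the 0 h sections and 96466 to 119134 in the injured ones. Markers of other cells moved with time as well. Summed over 7 mesenchymal genes, the level was 202 to 224 UPM at 0 h, 194 to 247 at 24 h, 252 and 595 in the sections A and B of 36 h, and 769 to 1713 at 48 h. Summed over 4 mononuclear phagocyte genes it went from 324 to 340 at 0 h to 544 to 601 at 24 h and 824 to 1547 at 48 h. Already at 24 h the sums were higher over 6 neutrophil genes (1.57 to 6.41 at 0 h, 39.1 to 134 at 24 h), 4 smooth muscle genes (24.8 to 32.2, then 51.6 to 52.2) and 6 cholangiocyte genes (188 to 232, then 998.9 to 1143). By the test described below, with total-count scaling, 5 of 5 tested neutrophil, 2 of 4 smooth muscle and 2 of 6 cholangiocyte genes passed as higher at 24 h. Among the cholangiocyte genes 1 passed as lower and the median log2 fold change was 0.35, so the rise of that sum was not shared by the whole list. Of the 7 mesenchymal genes 3 passed as higher and 1 as lower at 24 h. Their median log2 fold change was 1.18, beside 0.37 over all genes, so their nearly level sum at 24 h does not stand for the whole list. In sums over a section, more cells of a type and more RNA per cell cannot be told apart, and the part of these cells in the results was not tested. Spots off the tissue also held RNA of the genes studied here: per spot, Sparc reached 8.85 to 52.0% and Vtn 12.5 to 82.0% of the level on the tissue, depending on the section.

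The sequence just upstream of the start site is shown for 3 genes, each standing for a time course described below: Tnc, high from 24 h on, Postn, high from 36 h on, and Vtn, low at 48 h with TMM but not with total-count scaling. Windows came from a set of RefSeq windows for the build GRCm38.p6 that did not cover every chromosome. In this set 6 of the 9 genes had a window, and Fn1, Thbs1 and Lox did not. Only the windows of Tnc, Postn and Vtn lay at the start of the gene as annotated in GENCODE. Capitals mark matches on either strand to 5 short motifs. These were the TATA box, spelled TATAAA, the TEAD motif with the letters GGAATG, the GC box, for which GGGCGG was searched, the AP-1 motif, written as TGANTCA, and lastly the C/EBP motif, which was spelled as TTGCNNAA. For Vtn the last 29 bases of the window lay inside the GENCODE gene and were left out, which leaves 221 bases in place of 250.
Tnc, chr4:64047016-64047265, minus strand: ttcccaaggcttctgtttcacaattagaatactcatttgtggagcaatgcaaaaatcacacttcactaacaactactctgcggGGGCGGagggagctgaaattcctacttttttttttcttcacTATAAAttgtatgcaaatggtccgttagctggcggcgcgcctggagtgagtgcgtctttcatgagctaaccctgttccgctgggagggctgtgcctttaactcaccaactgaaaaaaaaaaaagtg
Postn, chr3:54360857-54361106, plus strand: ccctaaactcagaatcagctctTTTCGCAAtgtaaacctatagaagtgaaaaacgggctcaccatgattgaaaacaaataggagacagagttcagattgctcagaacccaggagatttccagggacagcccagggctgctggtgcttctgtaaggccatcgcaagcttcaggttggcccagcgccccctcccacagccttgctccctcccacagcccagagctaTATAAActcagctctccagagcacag
Vtn, chr11:78498870-78499090, plus strand: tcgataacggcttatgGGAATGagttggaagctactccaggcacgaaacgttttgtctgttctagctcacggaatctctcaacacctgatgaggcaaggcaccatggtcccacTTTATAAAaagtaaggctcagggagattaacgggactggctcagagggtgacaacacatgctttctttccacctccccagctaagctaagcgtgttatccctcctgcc
TATAAA was matched in each of the 3, in Tnc starting 126 bases and in Postn 26 bases before the RefSeq start site, and in Vtn in 2 overlapping matches, on opposite strands, that start 137 and 135 bases before it. Among all 32851 windows of 250 bases in the set used, 12.4% held this motif. Tnc also held GGGCGG (32.7% of windows), Postn the C/EBP motif (9.56%) and Vtn GGAATG (12.6%), while AP-1 (6.75%) was matched in none of the 3. These are matches of letters and not measured binding sites.

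Levels over time are given per section as CPM, UMIs per 1000000 UMIs of the section after TMM scaling, a factor that balances libraries on the bulk of their genes. Changes were tested with edgeR's quasi-likelihood test on the section sums with Benjamini-Hochberg adjustment over 14821 genes, and a gene was called at an adjusted p under 0.05. CPM values serve to compare sections, not genes, since 3′ capture is not scaled to gene length. Against 0 h, 6 of the 9 genes rose and none fell at 24 h (41.7% of all genes tested were called, 23.1% higher), 7 rose and none fell at 36 h (29.2% called, 16.8% higher), and 7 rose and 1 fell at 48 h (44.2% called, 23.3% higher and 20.9% lower). The median log2 fold change of the 9 genes was 1.17, 2.15 and 2.77 at 24, 36 and 48 h, beside 0.05, 0.05 and 0.01 over all genes tested. The 3 comparisons share the 0 h sections. Scaling by total counts instead shifted the median of all genes up to 0.37, 0.49 and 0.54, so that 80.4, 94.1 and 93.7% of all calls were higher in place of 55.4, 57.5 and 52.7%. Under that scaling 8, 9 and 8 of the 9 genes were called higher and none lower.

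**Figure D1:**
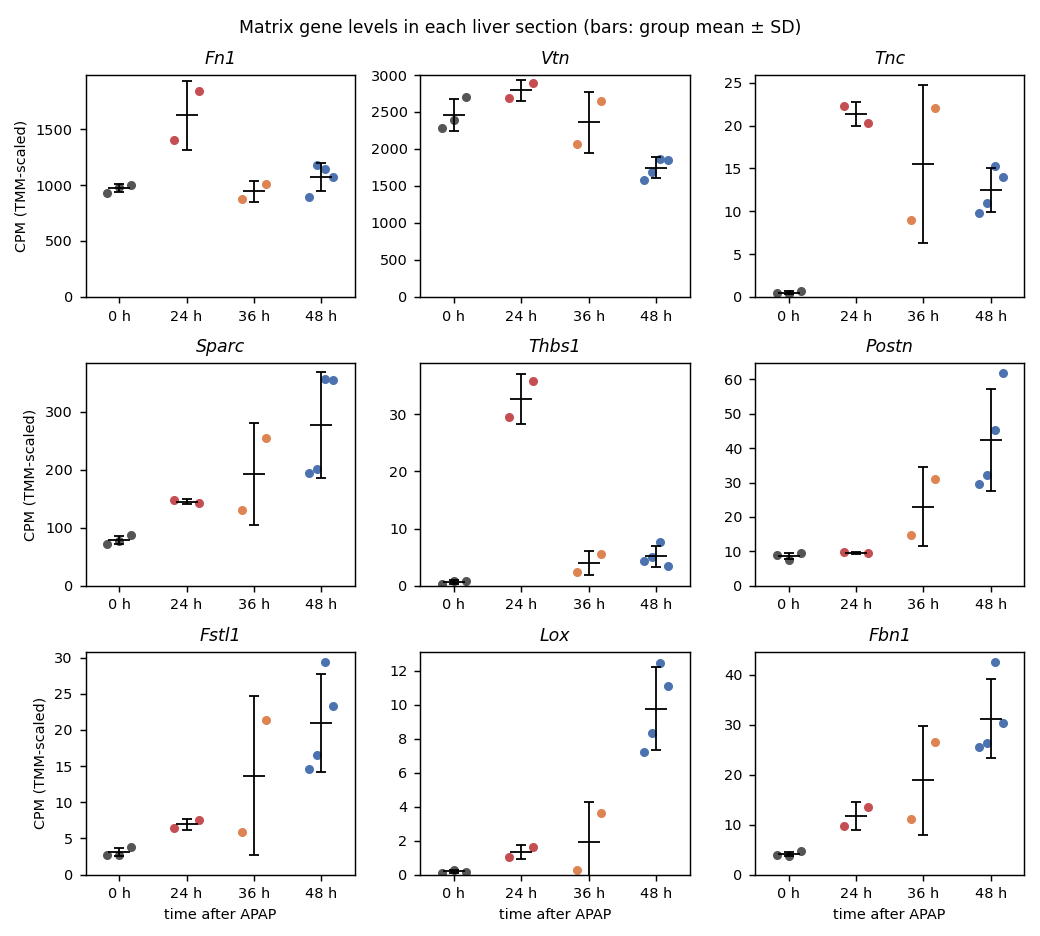
Level of each of the 9 genes in every section (CPM after TMM scaling, linear axis from 0 for each gene), by time after overdose; points are sections, horizontal bars group means and vertical bars 1 SD to either side, ending at 0 where they would go below it. Thbs1 and Fn1 were highest in both 24 h sections, whereas Lox was highest in the 4 sections of 48 h and Vtn lowest there; with total-count scaling Vtn was not lower at 48 h than at 0 h.

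Of the provisional matrix genes, with TMM scaling Fn1 was called higher at 24 h only and Vtn lower at 48 h, and both patterns depend on the scaling. Fn1 encodes fibronectin, the adhesive glycoprotein of plasma and early wound matrix (chr1:71585520-71653200, minus strand, GRCm38). Its level was 933, 985 and 998.97 CPM in the 0 h sections 2, 3 and 4, 1403 and 1842 in the 24 h sections A and B, 878 and 1009.6 in the 36 h sections A and B, and 891, 1177, 1141 and 1074 in the 48 h sections A to D. Both 24 h sections lay above all the others, while the 36 h and 48 h values overlapped with those of 0 h. At 24 h Fn1 rose by a log2 fold change of 0.74 (SE 0.15, adjusted p = 0.0031), from 972 ± 34.9 to 1623 ± 310.2 CPM (mean ± SD, n = 3 and 2). At 36 h it was lower than at 24 h (log2 fold change -0.78, SE 0.17, adjusted p = 0.0159), and against 0 h its values were -0.04 (adjusted p = 0.856) at 36 h and 0.14 (adjusted p = 0.406) at 48 h. With total-count scaling Fn1 was called higher at all 3 times, by 1.06 (adjusted p = 0.000212) at 24 h, 0.39 (adjusted p = 0.0464) at 36 h and 0.67 (adjusted p = 0.000982) at 48 h.

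Vtn encodes vitronectin, a plasma glycoprotein that binds integrins (chr11:78499091-78502324, plus strand). It stood at 2286, 2396 and 2703 CPM at 0 h, 2695 and 2897 at 24 h, 2067 and 2652 at 36 h, and 1586, 1686, 1869 and 1853 at 48 h. Every 48 h section lay below every other section, and the other times overlapped with 0 h. With TMM scaling Vtn fell at 48 h by 0.49 on the log2 scale (SE 0.12, adjusted p = 0.0061; 2462 ± 216 to 1749 ± 136 CPM), but with total-count scaling the value was 0.04 (adjusted p = 0.792), so this direction depends on the scaling. Neither 24 h nor 36 h passed against 0 h with TMM scaling (log2 fold changes 0.18 and -0.06, adjusted p = 0.317 and 0.771). Under total-count scaling Vtn was called higher at both of these times, by 0.51 and 0.37 (adjusted p = 0.00805 and 0.036). These results thus depend on the scaling as well. Between 24 h and 48 h Vtn fell by 0.68 (SE 0.13, adjusted p = 0.0033), which total-count scaling kept at -0.47 (adjusted p = 0.0144).

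Among the matricellular genes, Tnc and Thbs1 had their largest increase by 24 h. Tnc encodes tenascin-C, a large anti-adhesive glycoprotein of embryonic and wounded tissue (chr4:63959785-64047015, minus strand). It was at 0.484, 0.350 and 0.650 CPM at 0 h, which is 22, 19 and 23 UMIs, then at 22.3 and 20.3 CPM at 24 h, 8.95 and 22.0 at 36 h, and 9.79, 11.01, 15.3 and 14.0 at 48 h. All 8 injured sections lay far above the 0 h sections, and the 24 h sections were exceeded by none of the 48 h sections. On the log2 scale Tnc rose by 5.46 at 24 h (SE 0.40, adjusted p = 2.61e-05), by 5.003 at 36 h (SE 0.40, adjusted p = 0.000109) and by 4.70 at 48 h (SE 0.38, adjusted p = 2.6e-05). The difference between 24 h and 48 h, -0.77 (SE 0.30), did not pass the test (adjusted p = 0.0712), but passed in a fit of the 24 h and 48 h sections alone (-0.75, adjusted p = 0.0159).

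Thbs1 encodes thrombospondin 1, released by platelets and by many stressed cells, which binds CD47 and CD36 and activates latent TGF-β (chr2:118111876-118127133, plus strand). Its level was 0.242, 0.828 and 0.819 CPM at 0 h (11, 45 and 29 UMIs), 29.6 and 35.8 at 24 h, 2.49 and 5.48 at 36 h, and 4.30, 5.09, 7.68 and 3.54 at 48 h. Both 24 h sections stood apart from all others, and the 36 h and 48 h sections overlapped with each other but not with 0 h. Thbs1 rose at 24 h by 5.70 (SE 0.49, adjusted p = 4.34e-05), from 0.630 ± 0.336 to 32.7 ± 4.39 CPM, and then fell by 3.03 between 24 h and 36 h (SE 0.49, adjusted p = 0.00664). It was above 0 h by 2.66 at 36 h (SE 0.50, adjusted p = 0.00435) and by 3.03 at 48 h (SE 0.44, adjusted p = 0.00049). The 6 platelet markers summed to 6.97 to 9.47 UPM at 0 h, 27.3 to 36.2 at 24 h, 25.0 and 64.6 at 36 h and 71.6 to 181 at 48 h, most of it Pf4, with Gp1ba and Gp1bb at or near 0. With total-count scaling 2, 3 and 1 of the 4 platelet genes tested passed as higher at 24, 36 and 48 h, and none as lower. Their sum was highest at 48 h, whereas Gp9, 1 of the 6, had its highest value in section A of 24 h. Gp9 was at 0 to 0.202 CPM at 0 h, 6.28 and 0.798 at 24 h, 1.999 and 0.342 at 36 h, and 0.0430 to 0.376 in the 48 h sections. The part of platelets in the Thbs1 level was not tested.

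Sparc, Postn and Fstl1 had higher levels at 48 h than at 24 h. Sparc encodes osteonectin, a collagen-binding protein that modulates matrix assembly (chr11:55394500-55423183, minus strand). It was at 72.7, 77.7 and 87.0 CPM at 0 h, 148 and 142 at 24 h, 131 and 255 at 36 h, and 195, 202, 358 and 356 at 48 h. Every injured section was above every 0 h section, and every 48 h section above both 24 h sections. Sparc rose by 0.87 at 24 h (SE 0.32, adjusted p = 0.0486), by 1.29 at 36 h (SE 0.32, adjusted p = 0.0142) and by 1.81 at 48 h (SE 0.29, adjusted p = 0.000703). The call at 36 h was lost without section 2 of 0 h (1.22, adjusted p = 0.0521), and without B of 36 h the value was 0.73. The call at 24 h was lost whenever any 1 section of 0 h or 24 h was left out (adjusted p = 0.0878 to 0.155).

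Postn encodes periostin, a ligand of αv integrins that promotes collagen cross-linking (chr3:54361109-54391037, plus strand). It was at 8.91, 7.62 and 9.43 CPM at 0 h, 9.85 and 9.41 at 24 h, 14.8 and 31.1 at 36 h, and 29.7, 32.3, 45.4 and 62.0 at 48 h. Section B of 24 h lay within the 0 h range and A just above it, and from 36 h on all sections lay above 0 h and 24 h. Its log2 fold change at 24 h, 0.16 (SE 0.35), did not pass (adjusted p = 0.752), and it rose by 1.41 at 36 h (SE 0.34, adjusted p = 0.0135) and by 2.29 at 48 h (SE 0.31, adjusted p = 0.000317). From 24 h to 48 h the increase was 2.14 (SE 0.36, adjusted p = 0.00214), from 9.63 ± 0.310 to 42.4 ± 14.8 CPM.

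Fstl1 encodes follistatin-like 1, a secreted glycoprotein of mesenchymal cells related in part to Sparc (chr16:37776873-37836514, plus strand). It was at 2.75, 2.76 and 3.78 CPM at 0 h, 6.39 and 7.50 at 24 h, 5.88 and 21.4 at 36 h, and 14.5, 16.5, 29.4 and 23.3 at 48 h. All injured sections were above 0 h, yet at 24 h the log2 fold change of 1.17 (SE 0.48) did not pass the test (adjusted p = 0.0732), while it passed with DESeq2 (adjusted p = 0.0267), in a fit of the 0 h and 24 h sections alone (adjusted p = 0.00206) and without A or B of 36 h (adjusted p = 0.0115 and 0.0149). Fstl1 rose by 2.15 at 36 h (SE 0.47, adjusted p = 0.00857) and by 2.77 at 48 h (SE 0.43, adjusted p = 0.000674).

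The fibre assembly genes were highest at 48 h. Lox encodes lysyl oxidase, the copper enzyme that starts the cross-linking of collagen and elastin. Only 5, 16 and 5 UMIs of it were counted at 0 h (0.110, 0.294 and 0.141 CPM), followed by 1.01 and 1.595 CPM at 24 h, 0.261 and 3.60 at 36 h, and 7.18, 8.33, 12.4 and 11.1 at 48 h. Section A of 36 h, with 9 UMIs, lay within the 0 h range, and the 48 h sections were above all others. Lox rose by 2.74 at 24 h (SE 0.88, adjusted p = 0.0303), by 3.33 at 36 h (SE 0.85, adjusted p = 0.0171) and by 5.67 at 48 h (SE 0.76, adjusted p = 0.000324), the largest log2 fold change of the 9 genes at that time. Without section B of 36 h the value at 36 h was 0.45, and the call was lost. It was lost too without section 2 or 4 of 0 h (adjusted p = 0.0589 and 0.0513) and in a fit of the 0 h and 36 h sections alone (adjusted p = 0.0636). The call at 24 h was lost without section 2 or 4 of 0 h (adjusted p = 0.0911 and 0.0781) or without A or B of 24 h (log2 fold changes 3.06 and 2.40).

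Fbn1 encodes fibrillin 1, the main protein of the microfibrils that carry elastin and bind latent TGF-β complexes (chr2:125300594-125507993, minus strand). Its level was 4.01, 3.75 and 4.66 CPM at 0 h, 9.68 and 13.6 at 24 h, 11.1 and 26.6 at 36 h, and 25.6, 26.3, 42.6 and 30.5 at 48 h. No injured section overlapped with 0 h, and the 36 h section B fell within the 48 h range. Fbn1 rose by 1.49 at 24 h (SE 0.35, adjusted p = 0.00643; 0.0566 without section B), by 2.19 at 36 h (SE 0.34, adjusted p = 0.002) and by 2.92 at 48 h (SE 0.32, adjusted p = 0.000101).

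**Figure D2:**
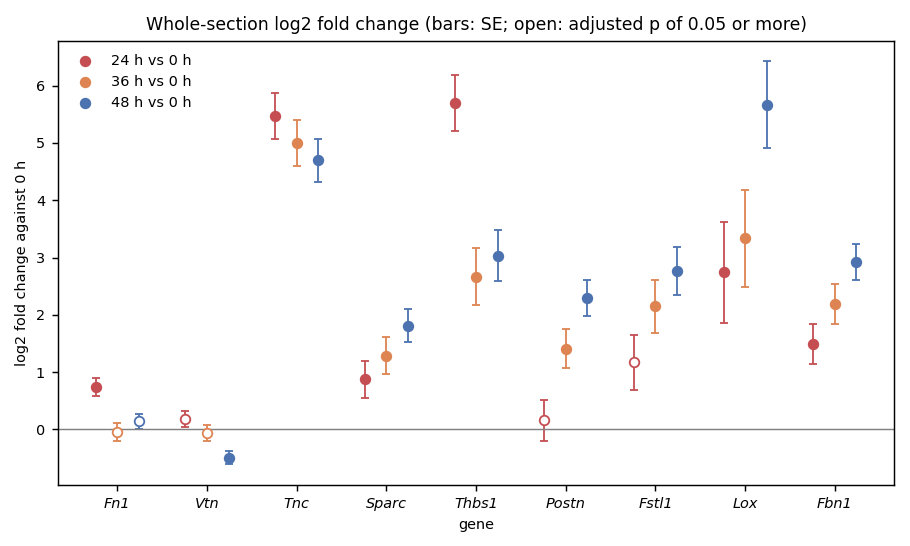
Log2 fold change against 0 h of the 9 genes at 24, 36 and 48 h from edgeR; points are estimates, bars 1 SE to either side, filled points had an adjusted p under 0.05 and open points did not. Thbs1 stood at 5.70 at 24 h and at 3.03 at 48 h, whereas Lox went from 2.74 to 5.67.

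Between injured times, the genes moved in opposite directions. From 24 h to 48 h Fn1, Vtn and Thbs1 fell, Sparc, Postn, Fstl1, Lox and Fbn1 rose, and Tnc did not pass, so 8 of 9 were called where 34.1% of all genes were (16.2% higher and 17.8% lower). Without section A or B of 24 h 4 were called. Thbs1 fell by 2.66 (SE 0.37, adjusted p = 0.000941), Fn1 by 0.60 (SE 0.14, adjusted p = 0.00938), while Lox rose by 2.92 (SE 0.72, adjusted p = 0.0121) and Fbn1 by 1.43 (SE 0.34, adjusted p = 0.01). In a fit of sections A and B of the injured times alone, Fn1, Lox and Fbn1 did not pass (adjusted p = 0.122, 0.128 and 0.116). Without section A of 24 h Lox had 2.61 and Fbn1 1.19, and without B Fn1 had -0.39. Sparc rose by 0.94 (SE 0.32, adjusted p = 0.0441), near the threshold. Its call was also lost without any 1 section of 0 h and without C or D of 48 h (adjusted p = 0.0535 to 0.0896). From 24 h to 36 h the 2 genes called, Fn1 and Thbs1, both fell (15.6% of all genes called, 7.04% higher and 8.58% lower). Without section A of 36 h, Postn, Fstl1, Lox and Fbn1 had increases of 1.69, 1.63, 1.49 and 1.19. With all sections Postn had 1.25 (adjusted p = 0.0523). It passed as a rise with DESeq2 (adjusted p = 0.00922) and without A or D of 48 h (adjusted p = 0.0473 and 0.0316). Between 36 h and 48 h the quasi-likelihood test called none of the 9 (3.05% of all genes, 1.62% higher and 1.43% lower). At an unadjusted p under 0.05 there were 4, namely Vtn (log2 fold change -0.43, adjusted p = 0.0983), Lox (2.34, adjusted p = 0.0966), Postn (0.88, adjusted p = 0.174) and Fbn1 (0.73, adjusted p = 0.24), and DESeq2 called 1, Vtn. The 2 sections of 36 h differed widely: A was below B for all 9 genes, by 8.95 against 22.0 CPM for Tnc and 0.261 against 3.60 for Lox. The sums of mesenchymal markers were 252 and 595 UPM in the 36 h sections A and B, and those of 6 mesothelial markers, which line the liver surface, 2.36 and 24.8; their part in this difference was not tested. Without section B, 3 genes (Tnc, Thbs1 and Fbn1) in place of 7 were called at 36 h against 0 h, and 4 (Postn, Fstl1, Lox and Fbn1) in place of none between 36 h and 48 h.

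Across the spots of a section, Fn1 and Vtn were found almost everywhere and the other genes in part of the spots. With each spot thinned to 5000 UMIs (1 to 260 shallower spots per section left out), Vtn was detected in at least 99.8% of spots of every section and Fn1 in 97.0 to 97.5% at 0 h and at least 98.8% after injury. Thbs1 was detected in 0.155 to 0.565% of spots at 0 h, 12.2 to 12.9% at 24 h, 1.41 to 2.35% at 36 h and 2.36 to 4.08% at 48 h. For Tnc the shares were 0.104 to 0.338% at 0 h, 9.62 to 10.3% at 24 h, 4.43 to 9.75% at 36 h and 4.82 to 8.47% at 48 h. Both genes had their highest share in a section of 24 h. Sparc was detected in 27.3 to 30.1% of spots at 0 h, 47.8 to 52.4% at 24 h, 49.4 to 69.3% at 36 h and 55.9 to 75.6% at 48 h. Postn went from 3.20 to 3.58% at 0 h to 13.3 to 25.9% at 48 h, Fstl1 from 1.19 to 1.55% to 6.91 to 14.2%, and Fbn1 from 1.39 to 1.64% to 11.8 to 20.01%. Lox was found in 0 of 1930 spots of the 0 h section 2, which allows a share of up to 0.155% by counting error, in at most 0.151% at 0 h, and in 3.26 to 6.71% at 48 h.

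**Figure D3:**
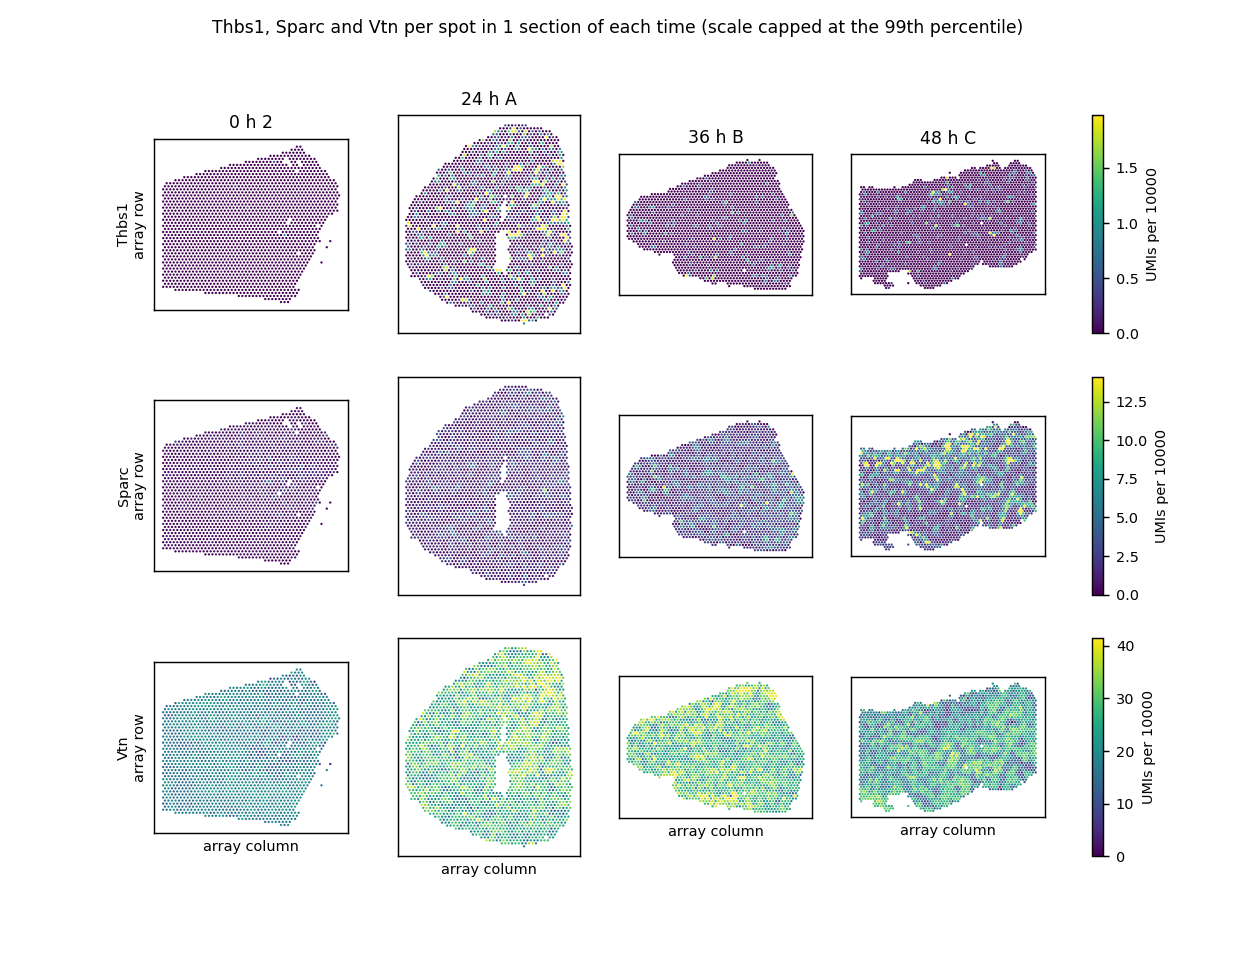
UMIs per 10000 UMIs of the spot for Thbs1, Sparc and Vtn in each passing spot of 1 section per time (0 h section 2, 24 h section A, 36 h section B, 48 h section C), drawn at array column and row, with a colour scale shared within a gene and capped at the 99th percentile of the spots shown. Spots high in Thbs1 are scattered over the 24 h section, spots high in Sparc lie in patches over the 48 h section, and Vtn is seen in nearly all spots at every time.

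The genes were placed relative to the spots poorest in hepatocyte transcripts within each section. The 10% of spots with the lowest score of the 6 hepatocyte genes in each section (149 to 346 spots) were called hepatocyte-low. Spots next to them were called ring 1, and spots at least 3 grid steps away far spots. Low spots are thus poor in hepatocyte transcripts relative to their own section, and no histology was used. Under a fixed cut, the 1st percentile of the 0 h score, 23, 35 and 15 spots were low in the 0 h sections 2, 3 and 4. Sections A and B had 1 and 0 such spots at 24 h and 0 and 1 at 36 h, and the 48 h sections A to D 14, 0, 30 and 3. Nearly all low spots of 24 h and 36 h thus lay above that cut. Since hepatocyte transcripts make up less of a low spot, the share of other transcripts rises there in part by construction. Vtn and Fn1 are themselves hepatocyte transcripts, so their lower level in low spots is largely fixed by the choice of spots and is given as a description. The classes were compared with TMM scaling and the section as a block. At 48 h all 9 genes differed between low and far spots, 7 higher and 2 lower (66.2% of all genes called, 33.9% higher and 32.4% lower). At 24 h 8 genes did, 6 higher and 2 lower (30.8% called, 15.9% higher and 14.9% lower), and at 36 h also 8, 6 higher and 2 lower (30.7% called, 14.1% higher and 16.6% lower). At 0 h the same rule gave 2, Fn1 and Vtn, both lower (4.67% called, 1.41% higher and 3.26% lower). With total-count scaling the median of all genes in low against far spots moved up by 0.36, 0.42 and 0.57 at 24, 36 and 48 h, 86.8, 86.5 and 83.7% of all calls were higher in place of 51.7, 46.0 and 51.1%, and the genes stood at 7 higher and 2 lower, 6 and 2, and 7 and 2, with each gene in the same direction.

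Vtn and Fn1 were lower in hepatocyte-low spots of every section, which were picked for few hepatocyte transcripts. In UPM, here per 1000000 UMIs of the spot class, Vtn went from 3035 in far spots to 1850 in low spots of the 24 h section A and from 3130.1 to 2041 in B, from 2539.5 to 1702 and from 3041 to 1986 in the 36 h sections, and from 2086 to 1019.8, 2132 to 1174, 2541 to 994 and 2387 to 1265 in the 48 h sections A to D. At 0 h it went from 1901 to 1616, 2044 to 1764 and 2254 to 1848. In the order of the times, from 0 h to 48 h, the log2 difference of Vtn was -0.37, -0.99, -0.998 and -1.59. That of Fn1 was -0.30, -0.98, -0.70 and -0.85. Fn1 stood at 1504 and 1997 UPM in the far spots of 24 h, against 957 and 1268 in the low spots.

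Of the early matricellular genes, Thbs1 went from 24.7 UPM in far spots to 79.8 in low spots of the 24 h section A and from 12.5 to 108 in B. It went from 2.65 to 9.10 and from 4.43 to 14.5 at 36 h. Its 48 h values went from 2.50 to 15.6, 3.18 to 23.2, 4.17 to 34.7 and 1.44 to 17.5. Low spots were thus higher in each of these sections. The log2 difference of Thbs1 was 1.91 (adjusted p = 0.000391) at 24 h, 2.47 (adjusted p = 4.0e-05) at 48 h, and 1.35 at 36 h, where it did not pass (adjusted p = 0.157). Without section A or B of 24 h, which the 36 h value does not involve but the fit does, it passed at nearly the same value (1.34 and 1.35, adjusted p = 0.000259 and 0.000252). Tnc went from 16.7 to 67.0 and from 5.74 to 71.5 at 24 h, from 5.13 to 31.1 and from 14.5 to 64.1 at 36 h, and from 4.02 to 44.5, 8.50 to 46.9, 9.34 to 59.1 and 7.33 to 59.0 at 48 h. The low spots of Tnc were higher in all 8 sections, by 2.20 (adjusted p = 0.000263), 1.87 (adjusted p = 0.00357) and 2.33 (adjusted p = 2.8e-06) on the log2 scale at 24, 36 and 48 h. The call of Tnc at 36 h was lost without section B of 36 h (2.22, adjusted p = 0.0863).

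Sparc and Postn showed the difference between classes most clearly at 48 h. Sparc went from 137 UPM in far spots to 593 in low spots of section A, 174 to 644 in B, 270.3 to 1131 in C and 257 to 1101 in D. At 24 h it had gone from 143 to 237 and from 110.3 to 232. Low spots were above far spots in all 8 injured sections, by 0.56 (adjusted p = 1.59e-05) at 24 h, 0.73 (adjusted p = 1.26e-07) at 36 h and 1.49 (adjusted p = 1.86e-20) at 48 h. Postn went from 14.4 to 113, 22.5 to 127, 28.8 to 167 and 34.3 to 235 in the 48 h sections. Its log2 difference was 1.604 (adjusted p = 7.5e-08) at 24 h, 1.51 (adjusted p = 2.57e-09) at 36 h and 2.14 (adjusted p = 3.08e-21) at 48 h, so Postn differed between the classes at 24 h although its section level at 24 h did not differ from 0 h by the test. In far spots Postn was at 7.39 and 5.10 UPM at 24 h, against 23.5 and 26.0 in low spots.

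Fstl1, Lox and Fbn1 had the same direction. At 48 h Fstl1 went from 8.32 to 54.1, 14.9 to 59.4, 20.6 to 103 and 14.4 to 88.5 UPM (log2 difference 1.87, adjusted p = 4.42e-17). Lox went from 3.88 to 29.4, 7.17 to 36.2, 7.76 to 47.0 and 4.70 to 49.5 (2.28, adjusted p = 2.54e-10), and its value at 24 h, 1.41, did not pass (adjusted p = 0.137). The call of Lox at 36 h was lost without A or B of 24 h, A or B of 36 h or A of 48 h (adjusted p = 0.0529 to 0.277). Fbn1 went from 16.9 to 88.4, 18.3 to 96.7, 30.5 to 148 and 20.9 to 97.9 (1.76, adjusted p = 6.27e-21). In the same 48 h sections the 7 mesenchymal markers went from 457 to 2219, 730 to 2767, 1073 to 4838 and 889 to 5224 UPM, and their part was not tested.

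**Figure D4:**
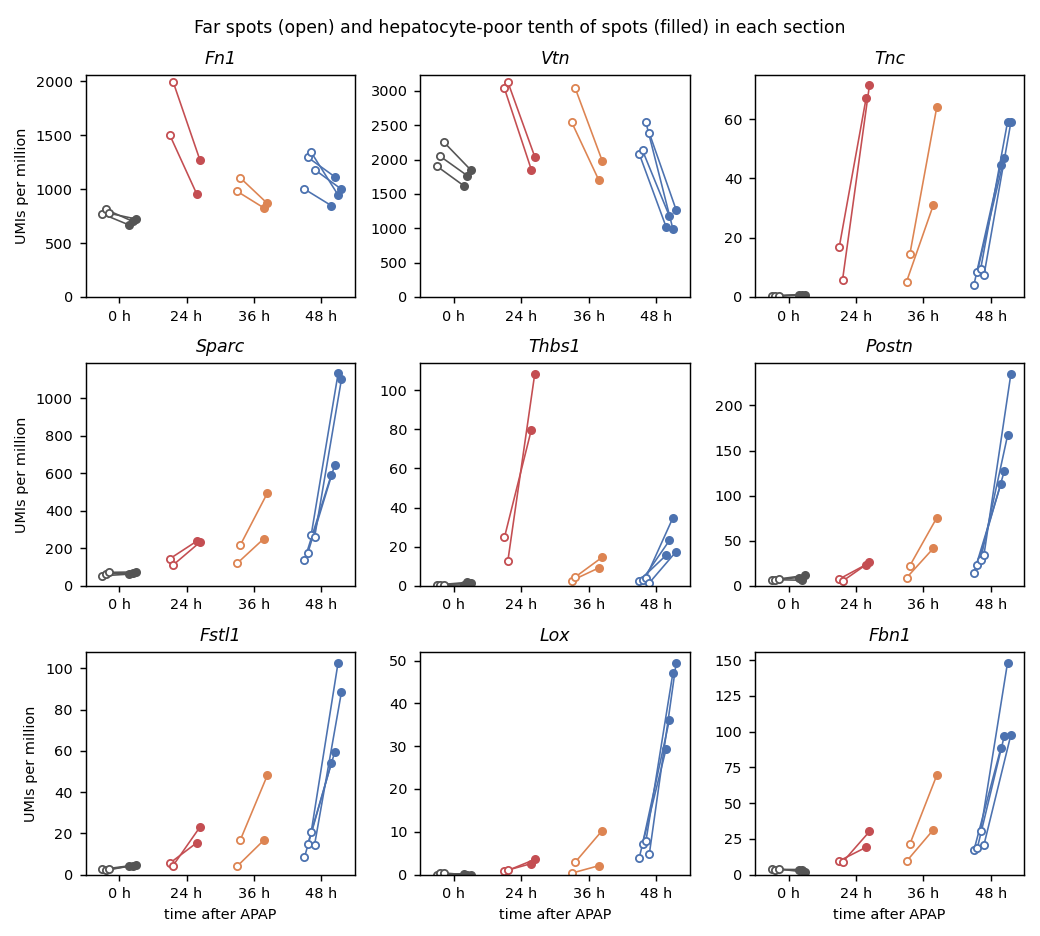
UPM (UMIs per 1000000 UMIs of the spot class) of the 9 genes in far spots and in hepatocyte-low spots of every section, by time (linear axis from 0 for each gene); open points are far spots, filled points low spots, and a line joins those of a section. Lines fall for Fn1 and Vtn in every section and rise for the other 7 genes in every injured section.

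Next to the low spots the differences were smaller. In ring 1 against far spots, 7 genes were called at 48 h (31.4% of all genes, 15.1% higher and 16.3% lower): Postn (log2 difference 0.94, adjusted p = 1.68e-10), Tnc (0.95, adjusted p = 0.0102), Lox (0.90, adjusted p = 0.000323), Fstl1 (0.67, adjusted p = 1.6e-06), Fbn1 (0.65, adjusted p = 1.25e-08) and Sparc (0.52, adjusted p = 5.86e-08) higher and Vtn (-0.58, adjusted p = 6.36e-08) lower. Sparc of section A showed the fall with distance, at 593 UPM in low spots, 239 in ring 1, 134 in the next ring and 137 in far spots. Fn1 (-0.12, adjusted p = 0.136) and Thbs1 (0.97, adjusted p = 0.0584) did not pass at 48 h. At 24 h 3 genes were called, Fn1 (-0.34, adjusted p = 0.0189), Vtn (-0.40, adjusted p = 0.0127) and Postn (0.69, adjusted p = 0.0201), where 3.88% of all genes were (1.56% higher and 2.32% lower), and at 36 h 1, Postn (0.62, adjusted p = 0.045; 0.556% of all genes, 0.0952% higher and 0.461% lower). At 0 h none was called (0.295% of all genes), and 2, Vtn and Fbn1, had an unadjusted p under 0.05. Without section B of 24 h none was called at 24 h. Without A the calls of Fn1 (adjusted p = 0.0539) and Vtn (adjusted p = 0.0749) were lost. Without A or B of 36 h none was called at 36 h. At 48 h the call of Tnc was lost without section C (adjusted p = 0.0545) or D (adjusted p = 0.0655).

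Far spots themselves also differed from far spots of the 0 h sections. At 24 h 4 genes rose in them, Thbs1 by a log2 fold change of 5.06 (adjusted p = 6.69e-05), Tnc by 4.82 (adjusted p = 0.000511), Fbn1 by 1.03 (adjusted p = 0.0379) and Fn1 by 0.87 (adjusted p = 0.00206), where 34.5% of all genes were called (17.4% higher and 17.2% lower). Spots off the tissue of the 24 h sections A and B held Thbs1 at 22.6 and 42.5 UPM, here of the UMIs off the tissue. Tnc stood there at 12.4 and 17.9 UPM. In section B both genes were thus higher off the tissue than in the far spots, and in A both were lower. The part of RNA spread over the slide in the far-spot levels was not tested. In the far spots of 36 h 5 rose (16.5% called, 8.38% higher and 8.08% lower), Tnc by 4.595, Thbs1 by 2.63, Fstl1 by 1.84, Fbn1 by 1.75 and Sparc by 1.07 (adjusted p = 0.00362 to 0.0441). At 48 h 7 rose (26.8% called, 14.1% higher and 12.7% lower), from Sparc by 1.33 (adjusted p = 0.00621) to Lox by 4.38 (adjusted p = 0.00103). The fall of Vtn at 48 h seen in whole sections was -0.25 in far spots and did not pass (adjusted p = 0.152). Postn in far spots had a value of -0.43 (adjusted p = 0.49) at 24 h and rose by 1.46 (adjusted p = 0.012) at 48 h. These far-spot results come from a single fit with TMM scaling. They were not checked with total-count scaling or with a section left out. Far spots were also compared under a narrower definition of the low spots, set at the 1st percentile of the 0 h score, which left most injured spots in the far class. Then 6 and 7 genes rose at 24 h and 36 h (41.7 and 29.3% of all genes called), and 7 rose and 1 fell at 48 h (43.2% called, 22.8% higher and 20.4% lower). The far class of this rule held 99.2 to 100% of spots in the 24 h and 36 h sections and 85.8 to 100% at 48 h. These counts thus nearly repeat the whole-section test and do not single out spots away from low ones.

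The share of each gene's UMIs that lay in the hepatocyte-low spots gives the same distribution in another unit. These spots held 9.49 to 11.8% of all UMIs of the 48 h sections. They held 31.8 to 46.9% of Tnc UMIs, 37.2 to 42.9% of Thbs1, 31.1 to 42.1% of Lox, 30.2 to 39.0% of Postn, 28.8 to 38.3% of Fstl1, 27.8 to 35.6% of Fbn1 and 26.0 to 31.3% of Sparc. By contrast they held 6.83 to 9.79% of Fn1 and 4.38 to 6.62% of Vtn. Most UMIs of each gene thus lay outside the low spots in every 48 h section.

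The zonation of the genes before injury was examined at 0 h, since APAP kills hepatocytes around the central vein. In each section the 20% of spots with the highest and the 20% with the lowest score of central minus portal genes were compared, with the section as a block, for the 6 genes that passed the filter on low counts (Tnc, Thbs1 and Lox did not). Vtn was lower on the central side, at 1634 against 1935, 1776 against 2092 and 1938 against 2215 UPM in sections 2, 3 and 4 (log2 difference -0.30, SE 0.03, adjusted p = 6.56e-11). Fn1 was at 689 against 789, 759.8 against 826 and 752 against 842 (-0.23, SE 0.03, adjusted p = 5.21e-08), and Sparc at 54.0 against 55.2, 55.4 against 61.2 and 60.9 against 69.5 (-0.19, SE 0.05, adjusted p = 0.00297). Postn was higher on the central side, at 7.25 against 6.16, 6.57 against 4.66 and 9.08 against 4.79 (0.45, SE 0.14, adjusted p = 0.0169), and Fbn1 lower (-0.68, SE 0.19, adjusted p = 0.00624), though in section 2 its levels were 3.55 and 3.58. Fstl1 did not differ by the test (0.10, adjusted p = 0.799). In all, 5 of the 6 were called, 1 higher and 4 lower, where 24.7% of genes were (11.9% higher and 12.9% lower). The calls of Postn and Fbn1 were lost without section 3, leaving 3, and that of Postn also without section 4. With total-count scaling 67.1% of all calls were higher in place of 48.0%, and Sparc had -0.12 (adjusted p = 0.057), leaving 1 higher and 3 lower.

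Within the 48 h sections the levels of 7 genes had weak positive correlations with each other on average and weak negative ones with those of Vtn and Fn1, which were detected in nearly all spots. Across spots thinned to 5000 UMIs, Pearson's r of log counts, averaged over the 4 sections, was 0.291 for Sparc and Postn, 0.265 for Sparc and Fbn1, 0.232 for Sparc and Fstl1, 0.223 for Sparc and Tnc and 0.193 for Postn and Fbn1. Thbs1 had r of 0.054 to 0.125 with the other 6 of these genes, with Lox from -0.023 to 0.118 by section. Vtn had -0.371 with Sparc and -0.245 with Postn, Fn1 had -0.136 with Sparc, and Fn1 and Vtn had 0.086 with each other. Spots of a section share a library and lie next to each other, sparse genes have low r at this depth, and these values are descriptions with no test.

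**Figure D5:**
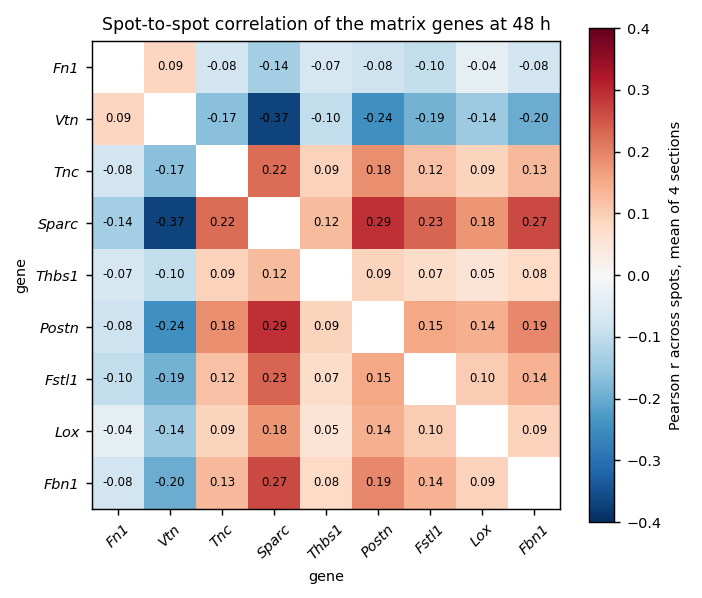
Pearson's r across thinned spots between each pair of the 9 genes, averaged over the 4 sections of 48 h; colour gives r. Sparc and Postn have the highest value, 0.291, and Vtn and Sparc the lowest, -0.371.

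The genes most alike across these spots, among 10793 considered, differed by group. For Vtn they were the hepatocyte genes Alb (mean r 0.59), Apoa2 (0.58) and Serpina1c (0.56), and for Fn1 Ahsg (0.31), which encodes the plasma protein fetuin-A, and the fibrinogen chains Fgb (0.23) and Fga (0.21). Type I collagen chains were among the closest 3 for Tnc (Col1a2, 0.26), Postn (Col1a2, 0.36), Fbn1 (Col1a2, 0.31, and Col1a1, 0.30), Fstl1 (Col1a2, 0.26) and Lox (Col1a1, 0.21). Tmsb4x, for the actin-binding thymosin β4, and Lyz2, the lysozyme of myeloid cells, were also among the closest 3 for Tnc, Postn, Fstl1, Lox and Sparc, which had its highest values with Tmsb4x and Ftl1 (both 0.51). For Thbs1 the closest were Ctsb, the lysosomal protease cathepsin B, and Lyz2 (both 0.16) and Tmsb4x (0.16).

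Other genes of the same processes were followed in 4 lists. Their counts are to be read beside the 41.7, 29.2 and 44.2% of all genes called at 24, 36 and 48 h (23.1, 16.8 and 23.3% higher and 18.6, 12.4 and 20.9% lower). Of 10 genes of the fibrin clot and plasmin system, in which Fn1 and Vtn act, 6 rose and 2 fell at 24 h, and 3 rose and 4 fell at 36 h and again at 48 h (median log2 fold change 0.996, -0.32 and -0.15). With total-count scaling 1 fell at 24 h and none at the later times, so the later falls depend on the scaling (medians 1.32, 0.12 and 0.38). The fibrinogen chain Fgb rose at 24 h (1.35, adjusted p = 0.000176), and the chain Fgg fell at 36 h with TMM but not with total-count scaling (-0.78, adjusted p = 0.00586 with TMM). F13a1, the clot cross-linking factor XIII A chain, rose at all 3 times (5.52, 5.93 and 6.58), F13b, its carrier chain made by hepatocytes, fell by 1.84 at 24 h, and Plat, tissue plasminogen activator, rose by 5.24 (adjusted p = 0.000251) at 48 h.

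Of 14 matricellular relatives, 5 rose and 2 fell at 24 h, 3 rose and 1 fell at 36 h, and 7 rose with no fall at 48 h (median 0.18, 0.53 and 0.89). The 7, 4 and 7 called thus lay near the share over all genes at each time. With total-count scaling 6, 8 and 9 rose and 2, 1 and none fell. The early ones were Fstl3, an activin binder (3.34 at 24 h, adjusted p = 0.000235), and Ctgf (2.26, adjusted p = 0.0155) and Cyr61 (2.19, adjusted p = 0.000552), both of the CCN family, while Sparcl1, the closest relative of Sparc, fell by 2.42 (adjusted p = 0.000325) at 24 h. At 48 h Wisp2 (3.68, adjusted p = 0.000674), Spp1, for osteopontin (2.41, adjusted p = 0.00018), and Thbs3 (2.22, adjusted p = 0.00172) were higher. Spp1 went from 45.5 to 67.0 CPM at 0 h to 185 to 455 at 48 h.

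Of 18 tested genes for cross-linking and microfibrils, 3 rose and 3 fell at 24 h, 7 rose and 1 fell at 36 h, and 13 rose and 1 fell at 48 h (median -0.43, 1.16 and 1.81). This is a lower share than over all genes at 24 h and a higher one at 36 h and 48 h. With total-count scaling 4, 12 and 15 rose and 2, 0 and 1 fell. Loxl2, a relative of Lox, rose from 1.497 to 1.915 CPM at 0 h to 5.29 to 8.14 at 24 h (1.93, adjusted p = 0.00219). Eln, for elastin, fell by 1.56 (adjusted p = 0.0265) and Fbln5, an elastin organiser, by 2.92 (adjusted p = 0.00993) at 24 h. At 48 h the largest values belonged to Ltbp2 (5.09, adjusted p = 8.35e-05), Plod2, a collagen lysyl hydroxylase (2.97, adjusted p = 0.00054), and Mfap2, a microfibril protein (2.90, adjusted p = 0.000443). Fbn2, another fibrillin, was counted with 0 to 2 UMIs per section at 0 h and 11 to 87 at 48 h (adjusted p = 0.00184).

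Of 16 receptors for these proteins, 4 rose and 1 fell at 24 h, 6 rose at 36 h and 9 at 48 h, and none fell at the later times (median 0.02, 0.35 and 0.50). The share called was below that of all genes at 24 h and above it at 36 h and 48 h. With total-count scaling 7, 12 and 14 rose and 1, 0 and 0 fell. Plaur, the urokinase receptor that also binds vitronectin, rose by 4.93 (adjusted p = 0.000114), 3.94 and 4.01 at the 3 times. Itga5, the fibronectin receptor subunit, rose by 1.20 (adjusted p = 0.000613) at 24 h and Itgb3 by 2.01 (adjusted p = 0.00465), whereas Itga8 fell by 3.47 (adjusted p = 0.000853). Itgav, which pairs with several β chains (1.22, adjusted p = 0.000207), and Cd36, the thrombospondin receptor (1.80, adjusted p = 0.000213), were higher at 48 h.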

How the data were processed

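Sections were snap-frozen, cryosectioned and profiled with the 10x spatial 3′ assay (v1). The deposited values are raw UMI counts per gene and spot barcode, with no normalisation, and the submitters' processing notes name Space Ranger 1.0.0, Seurat 4.1.1 and the build mm10. Counts were summed over on-tissue spots (800 genes or more, mitochondrial share up to 20%) per section, or per section and spot class. Sums were tested with edgeR 4.0.16 in R 4.3.3 (filterByExpr, TMM, robust quasi-likelihood, two-sided, Benjamini-Hochberg), all 11 sections in 1 fit for times, and the 8 injured sections with the section as a block for spot classes. The same steps were tested on simulated data. The designed class rule, a hepatocyte score under the 1st percentile of 0 h spots, left 20 spots in each class in only 1 section, so a second rule, the lowest 10% of spots per section, is reported. Spot scores used 2000 and spot shares and r used 5000 UMIs per spot, drawn with a fixed seed. No 2 sections of a group agreed within sampling noise (chi-square per gene 42.1 to 225.6). The 9 genes and all lists were chosen with earlier results of these data known. From each list, up to 4 called genes per comparison with the largest change could be named, and for each of the 9 genes the 3 most alike in spots of the 48 h sections. Alternatives were total-count scaling, DESeq2 1.42.0, no filter, other class rules, a replicate block, other sets of sections in the fit, and leaving out each section. A deposited image scale was not used here. The result of 1 gene of the lists is not reported here. Intervals and limits from counts cover counting error only.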

Additional observations from a re-analysis of the deposited data

Results flagged for a closer look

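For 6 comparisons of times, the difference between hepatocyte-low and far spots was tested for being unequal at the 2 times, as a log2 difference of differences from edgeR with Benjamini-Hochberg adjustment. At 24 h against 0 h it differed for 5 genes (18.7% of all genes): Fn1 by -0.71, Vtn by -0.65, Sparc by 0.56, Postn by 1.38 and Fbn1 by 1.42 (adjusted p = 2.73e-08 to 0.000427). At 36 h against 0 h the same 5 genes differed (20.4% of all genes), Fn1 by -0.38, Vtn by -0.61, Sparc by 0.78, Postn by 1.34 and Fbn1 by 1.75 (adjusted p = 1.27e-06 to 0.000895). At 48 h against 0 h 6 did (43.8% of all genes): Fn1 by -0.48, Vtn by -1.15, Sparc by 1.59, Postn by 2.03, Fstl1 by 1.16 and Fbn1 by 2.24 (adjusted p = 6.72e-19 to 0.000341). These comparisons share the 0 h sections, and those values came from a fit of all 11 sections, which was added after the data were seen. Vtn and Fn1 are hepatocyte transcripts, so their values depend on how poor in hepatocyte transcripts the low spots of a time are. For Tnc, Thbs1 and Lox, with few UMIs at 0 h, none of these differences passed.

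Between injured times, Vtn (-0.59, adjusted p = 0.000292), Sparc (0.93, adjusted p = 1.41e-07) and Fbn1 (0.73, adjusted p = 0.00194) differed at 48 h against 24 h (23.4% of all genes). At 48 h against 36 h, Vtn (-0.59, adjusted p = 0.000934), Sparc (0.76, adjusted p = 2.64e-05) and Postn (0.63, adjusted p = 0.0156) did (10.7% of all genes). At 36 h against 24 h none did (1.41% of all genes), and 1, Fn1, had an unadjusted p under 0.05. Leaving out 1 section ended some of these calls: Fbn1 without section A of 24 h (0.34, adjusted p = 0.399), Vtn without section A of 36 h (-0.55, adjusted p = 0.0663) and Postn without section B of 36 h (0.28, adjusted p = 0.642).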

How the results depend on the processing

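Of 1779 values of single genes under alternatives, 1631 kept direction and side of the threshold, 105 lost the call, 28 gained it and 15 reversed. Numbers of the 9 genes called moved by over 1.5 times as follows, with the range when 1 section was left out: 3 to 7 at 24 h against 0 h (6 with all sections, 3 without 24 h B), 3 to 7 at 36 h against 0 h (7, 3 without 36 h B), 1 to 6 at 36 h against 24 h (2), 4 to 9 at 48 h against 24 h (8, 4 without 24 h A or B), 0 to 4 at 48 h against 36 h (0, 4 without 36 h B), 2 to 7 and 3 to 7 in far spots of the 1st percentile rule at 24 h and 36 h (6 and 7), 0 to 5 and 0 to 3 in ring 1 at 24 h and 36 h (3 and 1), 0 to 1 for the differences of differences of 36 h from 24 h (0), 2 to 6 for those of 48 h from 24 h (3) and 2 to 6 for those of 48 h from 36 h (3), and 3 to 6 for central against portal spots (5). At 36 h against 24 h a fit of these 2 groups alone called 0. With total-count scaling, 6 and 2 were called in ring 1 at 24 h and 36 h, and 5 and 5 for the differences of differences at 48 h against 24 h and against 36 h. The fit of all 11 sections gave 5, 2, 5 and 5 for the same 4, the 10% of spots highest in phagocyte genes gave 5 in ring 1 at 36 h, and DESeq2 gave 1 at 48 h against 36 h.

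Total-count scaling reversed Fn1 (0.39) and Vtn (0.37) at 36 h and Vtn at 48 h against 0 h (0.0354 in sections, 0.0408 in far spots). Over left-out sections, values that changed sign, none with an adjusted p under 0.05 after the change, ranged as follows. At 36 h against 0 h they were -0.15 to 0.051 for Fn1 and -0.25 to 0.10 for Vtn. At 36 h against 24 h they were -1.21 to 0.045 for Tnc, -0.10 to 0.81 for Sparc, -0.20 to 1.63 for Fstl1, -2.25 to 1.49 for Lox and -0.024 to 1.19 for Fbn1. At 48 h against 36 h they were -0.81 to 0.48 for Tnc, -0.087 to 1.04 for Thbs1 and -0.031 to 1.83 for Fstl1, each end without 36 h A or B, and for central against portal spots -0.025 to 0.21 for Fstl1.

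Section letters A and B occur at 24 h, 36 h and 48 h. The replicate block on these letters, which needs a fit of sections A and B alone, called 1 gene at 36 h against 24 h and 2 at 48 h against 24 h, and a fit of the same 6 sections without the block, added after the data were seen, also called 1 and 2. Deviations of same-lettered sections from their group mean correlated at 0.39, -0.14, -0.17, 0.09 and -0.29 between times. In a group of 2 sections these deviations mirror each other. Between 24 h and 36 h the value is therefore 0.39 for A and for B, and -0.39 for unlike letters. Such values cannot decide whether the letters pair sections, and the letters were taken as names only. In that block Fn1 had -0.77 (adjusted p = 0.0959) at 36 h against 24 h. Classes set by the 5th percentile of the 0 h score or by Cyp2e1 left too few low spots at 24 h and 36 h and were not run there. Depth limits Lox, Thbs1 and Tnc at 0 h, where 5 to 45 UMIs per section were counted.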
